A study of Homo sapiens with 3 samples.

Results

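CDCP1 and 9 genes for adaptors, substrates and regulators of the Src kinase (AFAP1L2, AFAP1, BCAR1, PXN, PTK2, CTTN, CAV1, PAG1 and PTPRA) were followed across H1975 cells and the osimertinib-resistant lines OR1 and OR2. They are 10 of the 43316 genes on the array and were taken by symbol, with every probe of each gene. The probes of the 10 genes number 18 of 58200. The list was drawn up with the ratios of these same arrays known, so the values are given as a description and no test was made on them.

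H1975 is a lung cancer cell line that depends on a mutated EGFR, and osimertinib is an inhibitor of that mutated receptor. OR1 and OR2 were selected from H1975 independently of each other, with osimertinib raised in steps up to 2 μmol/L during 4 months, and all 3 lines thus descend from the same EGFR-mutated parent. The methods call the resistant lines clones, and no array is labelled as a line passaged without the drug. Each line was measured on 1 array, and the 3 arrays lie on 1 slide, so differences between lines cannot be told apart from differences between cultures of a line.

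CDCP1 is a membrane glycoprotein that is phosphorylated on tyrosine by Src family kinases and then serves as a docking site that holds Src and protein kinase C delta at the membrane. Around Src sit adaptors that bind its SH2 and SH3 domains, large scaffold proteins of focal adhesions and the actin cortex that it phosphorylates, and membrane proteins that set its activity by controlling the phosphate on its C-terminal tail. In carcinoma cells this set of proteins links integrins and growth factor receptors to adhesion turnover and invasion. An mRNA array measures the amount of transcript and not the phosphorylation through which most of these proteins act.

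Intensity is the brightness of a spot, given here as deposited, corrected for background but not scaled between arrays. Ratios to H1975 were formed after each array was divided by its 75th percentile, which lay at 157, 138 and 162 in H1975, OR1 and OR2, so a ratio is not the plain quotient of the intensities printed beside it. The error after a printed intensity is the scanner software's estimate for that spot, and the technical SD of a log2 ratio is propagated from it. Both cover the measurement of 1 RNA sample and not the spread between cultures. For bright probes the technical SD was near 0.20 whatever the probe, so it is a software estimate and not an observed spread. Over 300 probes spotted 10 times, the median SD of the log2 intensity between spots of the same array was 0.054. A gene was called up-regulated at a ratio of at least 2 and down-regulated at a ratio of at most 0.5, as in the methods. Where 1 side of a ratio fell short of the scanner software's call of well above background, that side was set to the higher of its own value and the lowest value well above background on its array (an intensity of 12.6, 11.4 and 12.6 in H1975, OR1 and OR2), and the ratio is a bound. All 10 genes were on the array, and 17 of the 18 probes were well above background on all 3 arrays.

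The probe sequences show what each measurement reads. The last 30 bases of the 60-base probes are given for the genes with the largest ratios and for PXN and BCAR1, whose probes differ widely in brightness. Capitals mark AATAAA, the signal for polyadenylation, which in these letters occurred in 7.85% of 58201 probes on the array.
CDCP1, NM_022842: ctttgggatacaagttctttcctcttcatt
CDCP1, NM_178181: gtgcatcatcgagtctgtgtttgagggtga
AFAP1L2, NM_001001936: gacttctttccagtccaaggcaggcctgaa
PXN, NM_002859: tcaattcctgtgatttatgccAATAAAgtt
PXN, NM_001243756: gctgtggcatcctgagtgctttgtgtgccg
PXN, ENST00000323871: tggaccggcaggccatcttcccagatacct
BCAR1, NM_001170714: ggttttccaatcatttgactaagagtctcc
BCAR1, NM_014567: ctctatgtcaatgtggccgagtccccggat

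CDCP1 was the single gene of the 10 that was up-regulated in both resistant lines. Its brighter probe (NM_022842, hg19 chr3:45123839-45123898, minus strand) read 51.1 ± 5.75 in the parental cells, 506 ± 50.6 in OR1 and 501 ± 50.2 in OR2. Both resistant lines thus stood far above the parent and close to each other, with a ratio of 11.3 in OR1 (log2 3.50, technical SD 0.22) and 9.54 in OR2 (log2 3.25, technical SD 0.22). OR2 over OR1 was 0.846, a log2 difference of -0.24 with a technical SD of 0.20. Of 18591 genes that all 3 arrays placed well above background, 60 had a higher ratio than CDCP1 in OR1 and 70 in OR2.

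A second CDCP1 probe, for the transcript NM_178181, read the same direction. Its positions on hg19 span 1301 bases (chr3:45152300-45153600), far more than the 60 bases of the probe, so it crosses at least 1 intron. It read 5.34 in H1975, short of that call, against 75.8 and 66.8 in the resistant lines, giving lower bounds of 6.88 and 5.18 on the ratios in OR1 and OR2. In the parental cells this probe therefore gives only an upper limit, and both resistant lines lay above it. With normexp background correction the ratios of the brighter probe were 5.78 and 5.09, and spike-in scaling left OR1 at 7.47.

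AFAP1L2, which encodes the adaptor XB130 that binds Src and the regulatory subunit of PI3-kinase, was the single gene of the 10 that was down-regulated in both lines. Its 1 probe (hg19 chr10:116055130-116055189, minus strand) read 2548 ± 255 in the parental cells, 36.3 ± 4.77 in OR1 and 22.5 ± 3.93 in OR2. The parental cells were bright and both resistant lines were dim, though still well above background. The ratio was 0.0163 in OR1, a decrease of 61.5-fold (technical SD of the log2 ratio 0.24). In OR2 it was 0.00859, a decrease of 116-fold (0.29). Of the same 18591 genes, 5 had a lower ratio in OR1 and 1 had a lower ratio in OR2. With normexp background correction the ratios were 0.0445 and 0.0352. The log2 difference between the resistant lines, -0.92 with a technical SD of 0.32, rests on 2 dim spots.

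AFAP1, the actin filament-associated paralogue of AFAP1L2, which binds Src through SH2 and SH3 motifs and cross-links actin, moved the other way within a smaller range. It read 52.6 in the parental cells, 81.0 in OR1 and 85.5 in OR2, and the ratios were 1.76 (technical SD 0.22 in log2) and 1.58 (0.23). Both resistant lines lay above the parent by more than the technical SD and below the ratio of 2. Scaled on the spike-in probes, AFAP1 in OR1 was at 1.16, about 1 technical SD from the parent.

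The 10 genes can be read against all genes on the array. Up-regulation in both lines held for 5.09% of the 22418 genes measured on 1 array or more, and down-regulation in both for 6.32%. In OR1 1 of the 10 genes was at or above 2 (beside 9.17% of all genes) and 2 were at or below 0.5, AFAP1L2 and PAG1 (beside 9.58%), 3 in all beside 18.7%. In OR2 1 was at or above 2 (beside 7.72%) and 1 at or below 0.5 (beside 8.7%), 2 in all beside 16.4%. By probes, 2 of 18 were up-regulated in both lines and 1 was down-regulated in both, beside 5.02% and 6.15% of all probes. Since the list was made with these ratios known, nothing is read from those shares. The median log2 ratio of the 10 genes was -0.45 in OR1 and -0.015 in OR2, beside 0.039 and -0.057 over all genes. In OR1 7 of the 10 lay below H1975 and in OR2 5 did, beside 47.7% and 53.9% of the 18591 genes.

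**Figure D1:**
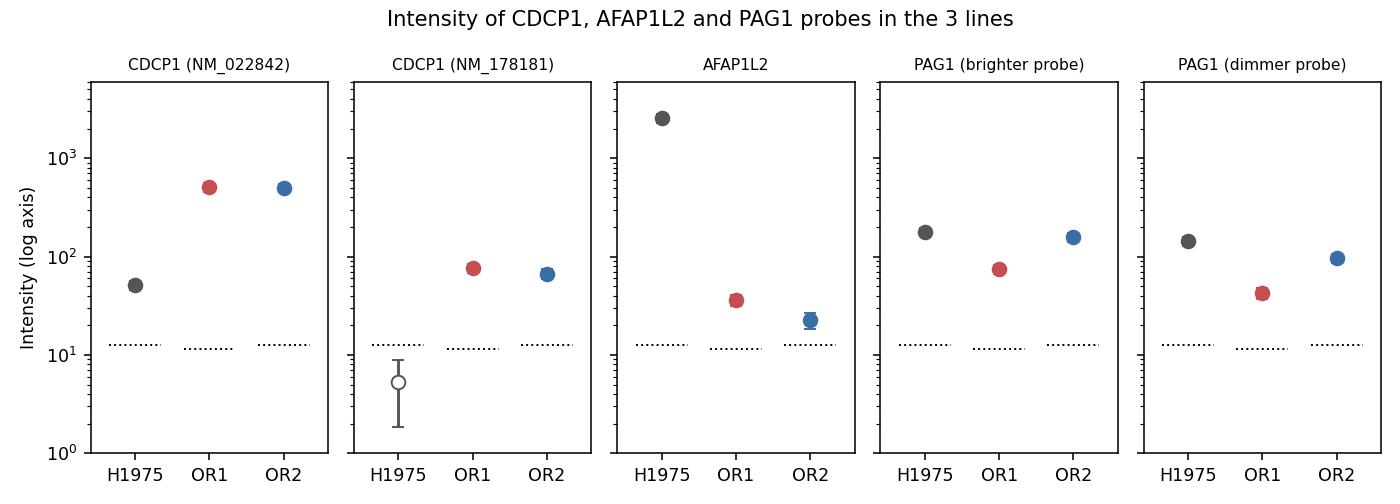
Spot intensity as deposited (log scale, before scaling between arrays) of the CDCP1, AFAP1L2 and PAG1 probes in H1975, OR1 and OR2, with the scanner software's error as bars, an open symbol where a spot was not well above background, and dotted lines at the lowest value well above background on each array. CDCP1 goes from 51.1 in H1975 to 506 and 501, AFAP1L2 goes from 2548 to 36.3 and 22.5, PAG1 is lowest in OR1 on both probes, and levels of different probes are not comparable with each other.

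**Figure D2:**
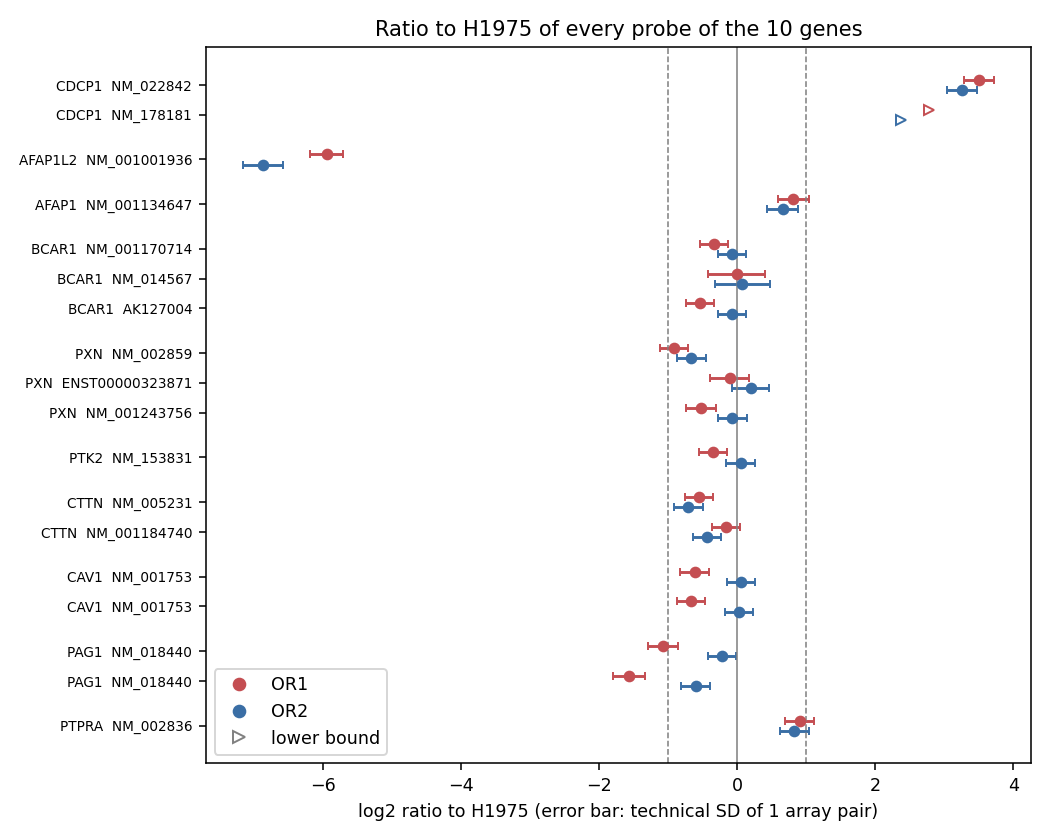
Log2 ratio to H1975 of each of the 18 probes in OR1 and OR2 after scaling on the 75th percentile, with 1 technical SD as bars and open triangles for lower bounds, and dashed lines at ratios of 2 and 0.5. Both CDCP1 probes lie above the upper line, AFAP1L2 lies below the lower line, and both PAG1 probes cross the lower line in OR1 alone.

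BCAR1, which encodes p130Cas, the docking protein that Src phosphorylates at adhesions, had 3 probes. The brightest (NM_001170714, hg19 chr16:75262958-75263017) gave 11927, 8292 and 11616 in the order H1975, OR1 and OR2, with ratios of 0.793 and 0.948. A second on the same chromosome (AK127004, hg19 chr16:75280270-75280329) gave 415, 251 and 406, with ratios of 0.690 and 0.952. On both probes OR1 was the lowest line while OR2 lay within 1 technical SD of H1975. The probe named NM_014567 is placed by the files on chromosome 15 (chr15:20279528-20279587), away from the gene on chromosome 16. It gave 16.8, 14.6 and 18.1, which is near the limit of detection, and its reading is uncertain for BCAR1. With quantile normalization the ratio of BCAR1 in OR2 was 1.11, so its direction in OR2 flips with the scaling.

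PXN encodes paxillin, the adaptor that Src and focal adhesion kinase phosphorylate. Its brightest probe (NM_002859, hg19 chr12:120648265-120648324), the one whose printed end holds AATAAA, gave 19862, 9239 and 12888 in that order. Both resistant lines lay below the parent, OR1 at a ratio of 0.531 and OR2 at 0.632. The OR1 ratio of this probe passed 0.5 with median scaling (0.492), no scaling (0.465) and spike-in scaling (0.351). With quantile normalization it was 0.560. The other probes gave smaller differences. NM_001243756 (chr12:120651646-120651705) read 130, 79.5 and 128, with ratios of 0.695 and 0.952, and ENST00000323871 (chr12:120657291-120657350) read 30.4, 24.7 and 35.7, with ratios of 0.926 and 1.14. The 3 PXN probes thus share an OR2 level above OR1 (OR2 over OR1 of 1.19, 1.37 and 1.23), while only the NM_002859 probe lay below H1975 in OR2 by more than 1 technical SD.

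PTK2 encodes focal adhesion kinase, the kinase that pairs with Src at integrins. Its 1 probe (NM_153831, hg19 chr8:141669110-141669169) gave 385, 266 and 409, with ratios of 0.787 and 1.03. OR1 was the lowest of the 3 lines, and OR2 lay within the technical SD of the parent.

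CTTN encodes cortactin, an actin-binding protein of invadopodia and a classical Src substrate. The brighter probe (NM_005231, hg19 chr11:70282582-70282641) gave 12145, 7231 and 7647 in H1975, OR1 and OR2, with ratios of 0.679 and 0.613. The dimmer one (NM_001184740, chr11:70281141-70281200) gave 380, 298 and 288, with ratios of 0.894 and 0.736. Both resistant lines lay below the parent on both probes. OR2 over OR1 was 0.902 and 0.824. For the brighter probe this direction turned with quantile normalization (1.02), the authors' nearly identical normalized intensities (1.02), no scaling (1.06) and spike-in scaling (1.44).

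CAV1 encodes caveolin-1, the coat protein of caveolae, which Src phosphorylates on tyrosine. Its 2 probes gave nearly the same ratios. One (hg19 chr7:116200742-116200801) read 17502, 9994 and 18609, with ratios of 0.651 and 1.03. The other (chr7:116199001-116199060) read 12350, 6782 and 12865, with ratios of 0.626 and 1.01. OR1 stood below both other lines, and OR2 and H1975 differed by less than the technical SD.

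PAG1 encodes a transmembrane adaptor of lipid rafts that recruits CSK, the kinase that puts the inhibitory phosphate on Src. The brighter probe (hg19 chr8:81880233-81880292) gave 179 ± 18.2, 74.5 ± 7.99 and 157 ± 16.1 in the order H1975, OR1 and OR2. The dimmer probe (chr8:81882667-81882726) gave 144 ± 14.7, 42.4 ± 5.05 and 97.0 ± 10.1. On both, OR1 was the lowest line, with ratios of 0.475 and 0.337, past the ratio of 0.5. OR2 stayed between OR1 and H1975, with ratios of 0.857 and 0.658. With normexp background correction the brighter probe was at 0.624 in OR1 and no longer past 0.5.

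PTPRA encodes a receptor-type phosphatase that removes the same inhibitory phosphate. Its 1 probe (NM_002836, hg19 chr20:3018788-3018847) gave 2850, 4671 and 5200. Both resistant lines were above the parent, at ratios of 1.87 and 1.78 (technical SD 0.20 in log2 in each), short of 2. Scaled on the spike-in probes, PTPRA in OR1 was at 1.24. PTPRA and AFAP1 were, after CDCP1, the genes of the 10 with the highest ratios in both lines.

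OR1 and OR2 were also set against each other. Their ratios to H1975 share the one H1975 array, whereas OR2 over OR1 does not use it. In OR2 over OR1, 0 of the 10 genes were at or above 2 (beside 2.48% of all genes) and 0 were at or below 0.5 (beside 2.89%, and 5.36% in both directions). The log2 difference exceeded 2 technical SD for 3 of the 10, namely PAG1 (0.85, technical SD 0.21), CAV1 (0.67, technical SD 0.20) and AFAP1L2 (-0.92, technical SD 0.32). For PAG1 and CAV1 the second probe gave 0.96 and 0.69. The share of all genes past 2 technical SD was not counted, so nothing is read from that count. Of the 18591 genes, 96.9% had a lower OR2 over OR1 than PAG1, 94.4% than CAV1 and 2.18% than AFAP1L2. With normexp background correction AFAP1L2 was at -0.33 and no longer past 2 technical SD. OR2 was above OR1 in 5 of the 10 genes (BCAR1, PXN, PTK2, PAG1 and CAV1) and on 11 of the 18 probes, beside 43.3% of the 18591 genes. Scaling bears on the comparison, since scaling on 7 spike-in probes shifted the OR1 median over all genes by -0.60 in log2. Under it OR2 was above OR1 in 9 of the 10 genes, CDCP1, AFAP1, PTPRA and CTTN included, and AFAP1L2, the exception, was at a log2 difference of -0.25, within 1 technical SD. The OR1 ratios of CTTN, PXN and CAV1 were then 0.450, 0.351 and 0.431, past 0.5. OR2 was above OR1 in 7 of the 10 with quantile normalization and in 8 without scaling, while PAG1 and CAV1 were higher in OR2 by more than 2 technical SD under every alternative run.

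**Figure D3:**
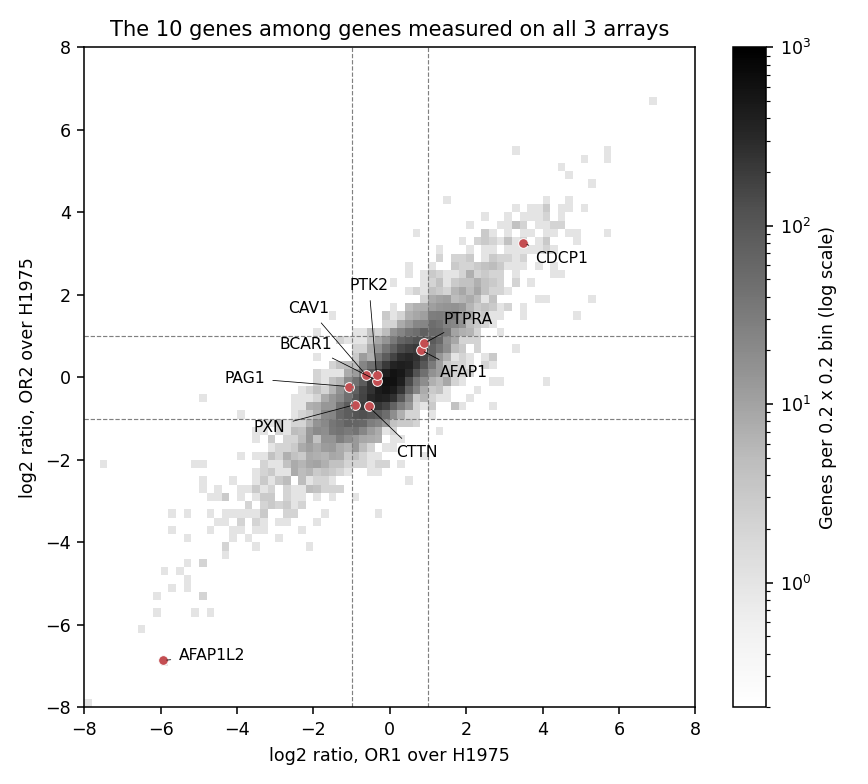
Log2 ratio to H1975 in OR1 (horizontal) and in OR2 (vertical) of the same 18591 genes, shaded by the number of genes in each bin on a log scale, with the 10 genes as red points, dashed lines at ratios of 2 and 0.5, and values beyond the axes drawn at the edge. The axes share the H1975 array. CDCP1 (3.50, 3.25) and AFAP1L2 (-5.94, -6.86) lie at opposite ends, and the other 8 genes lie in the dense centre.

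The 250 bases before the RefSeq start of CDCP1 and AFAP1L2 (GRCh38.p14), the genes with the highest and the lowest ratios of the 10, are given for reference. The table used held 7 of the 10 genes. Both strands were searched for GGGCGG, the SP1 box, for TGANTCA, the AP-1 site, for CACCTG, the E-box that ZEB and SNAI proteins bind, for GGAATG, the TEAD site, and for the TATA box as TATAAA. Capitals mark matches.
CDCP1, chr3:45146379-45146628, minus strand: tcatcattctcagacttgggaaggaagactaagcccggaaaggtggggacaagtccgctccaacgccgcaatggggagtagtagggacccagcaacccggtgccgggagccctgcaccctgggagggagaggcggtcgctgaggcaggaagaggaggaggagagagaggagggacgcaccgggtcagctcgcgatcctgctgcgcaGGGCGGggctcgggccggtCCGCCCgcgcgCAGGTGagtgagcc
AFAP1L2, chr10:114404503-114404752, minus strand: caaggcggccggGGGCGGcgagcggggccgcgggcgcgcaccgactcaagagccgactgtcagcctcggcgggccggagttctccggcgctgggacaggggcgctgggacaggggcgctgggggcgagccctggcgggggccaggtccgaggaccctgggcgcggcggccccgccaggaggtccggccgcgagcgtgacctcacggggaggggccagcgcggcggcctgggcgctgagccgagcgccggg

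The CDCP1 window held 2 GGGCGG and 1 CACCTG with a GC content of 67.6%, and the AFAP1L2 window held 1 GGGCGG with a GC content of 81.6%. Over 34788 promoters of the table the median GC content was 58.0%, and GGGCGG was found in 42.6%, CACCTG in 17.5%, GGAATG in 11.9%, TATAAA in 10.8% and TGANTCA in 6.59%. The AP-1, TEAD and TATA letters were found in neither window. A match is a run of letters and not evidence of binding.

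The chromosomal surroundings were described by the 20 nearest genes called above background on all 3 arrays, 10 on each side where available. The neighbours of CDCP1 had medians of 0.41 and 0.44, the direction of the gene itself (3.50 and 3.25), and 2 of them were up-regulated in both lines. The neighbours of AFAP1L2 had median log2 ratios of -0.16 in OR1 and -0.053 in OR2, while AFAP1L2 itself was at -5.94 and -6.86. Of those 20 genes, 1 was down-regulated in both lines. The neighbours of PTPRA had medians of 0.95 and 0.51, with 3 up-regulated in both lines, beside 0.90 and 0.83 for PTPRA. The neighbours of CAV1 had medians of -1.08 and -0.39, with 3 down-regulated and 1 up-regulated in both lines, beside -0.62 and 0.05 for CAV1. For PAG1 the medians were -0.57 and -0.38, with 5 neighbours down-regulated in both, beside -1.07 and -0.22 for the gene. In OR1 every gene of the 10 but CTTN, PXN and PTK2 had the sign of its neighbours' median, and in OR2 every gene but CAV1. Some of these medians were very small, at -0.0017 for BCAR1 and 0.011 for CTTN in OR1 and -0.0085 for PXN in OR2. BCAR1 and PTK2 themselves lay within 1 technical SD of H1975 in OR2. Such signs can turn with the scaling, and no tally under the other scalings is given, so nothing is read from it. The part of the neighbourhood in the ratios was not tested. The neighbours of AFAP1, BCAR1, CTTN, PXN and PTK2 had medians between -0.22 and 0.24 in both lines. For CTTN and PTK2, 2 neighbours each were down-regulated in both lines. For AFAP1, BCAR1 and PXN, 1 neighbour each was up-regulated in both.

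**Figure D4:**
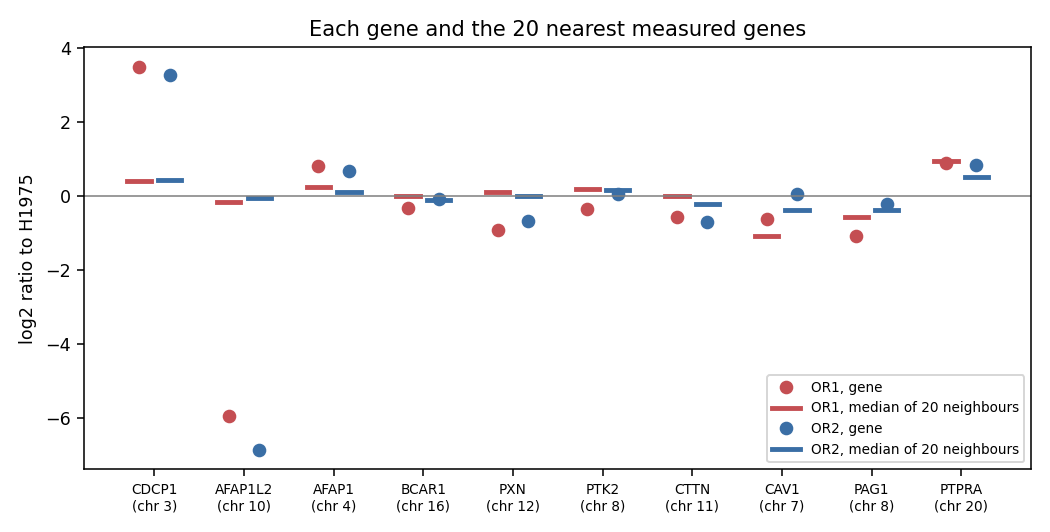
Log2 ratio to H1975 of each of the 10 genes (points) and the median of its 20 nearest genes (short lines) in OR1 (red) and OR2 (blue). AFAP1L2 stands more than 5 log2 units below its neighbours' median, whereas PTPRA lies at 0.90 and 0.83 beside neighbours at 0.95 and 0.51.

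The genes whose pattern was most like that of CDCP1 were found by the Euclidean distance between pairs of log2 ratios (OR1 and OR2) among 18590 other genes called above background on all 3 arrays. The nearest was SLC4A11, a membrane transporter of the solute carrier family, with intensities of 53.5, 558 and 522 in H1975, OR1 and OR2 and ratios of 11.9 and 9.49 (distance 0.079). RIMKLB, an amino acid ligase, followed with ratios of 10.4 and 10.4. PDGFRB, the receptor tyrosine kinase for PDGF, had ratios of 12.0 and 8.40, and GJA3, a gap junction connexin, had 11.0 and 11.3. Likeness over 3 arrays says only that the ratios were similar.

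Other genes around CDCP1 and Src were described by 6 lists, 82 genes in all, of which 75 were measured, that is, above background on 1 array or more. Up-regulated in both lines were 4 of the 75, beside 5.09% of all genes, and down-regulated in both were 10, beside 6.32%. The medians of the log2 ratios over the 75 were -0.25 in OR1 and -0.10 in OR2. The lists were drawn up with earlier results of these arrays known.

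Of 9 Src family kinases 7 were measured, and their median log2 ratio was -0.30 in OR1 and -0.088 in OR2. Of the 7, 2 lay above H1975 in OR1 and 3 in OR2. SRC itself was above H1975 in both lines, with intensities of 254, 412 and 361. Its ratios were 1.85 and 1.39 (log2 0.89 and 0.47, technical SD 0.21 in each), short of 2. FRK, an epithelial kinase of the family, was down-regulated in both lines, with intensities of 96.9, 3.03 and 9.10, the latter pair not well above background, and ratios of at most 0.134 and 0.127. LCK was also down-regulated (at most 0.0868 and 0.0820) and FGR was up-regulated (at least 2.43 and 4.34). FYN had the largest difference between the resistant lines, with intensities of 572, 408 and 56.5 and ratios of 0.813 and 0.0962.

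Of 13 regulators of Src activity 11 were measured, with medians of 0.15 and -0.14. MATK, a kinase related to CSK, was down-regulated in both lines, with intensities of 57.8, 3.21 and 19.7 and ratios of at most 0.225 in OR1 and 0.332 in OR2. Among the regulators well above background in both resistant lines, PTPRE, a phosphatase related to PTPRA, differed most between them, at 0.582 and 0.906, while OR2 over OR1 is only a lower bound for MATK (at least 1.48). The other 10 measured regulators did not pass the ratio in both lines.

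The list of CDCP1 partners and proteases had the lowest medians, -1.25 in OR1 and -0.52 in OR2, over 9 measured genes of 11. Down-regulated in both lines were 4 of the 9. ST14 encodes matriptase, a membrane protease able to cleave CDCP1, and had intensities of 1293, 126 and 176 with ratios of 0.111 and 0.133. PLAU encodes urokinase, the activator of plasminogen, and had 45562, 9338 and 16219 with ratios of 0.234 and 0.346. CDH3, the P-cadherin gene, had ratios of 0.166 and 0.463 and, of the listed genes well above background in both resistant lines, the largest difference between them. SDC1, which encodes the heparan sulfate proteoglycan syndecan-1, had ratios of 0.355 and 0.410. The mRNA of these genes was thus lower in the lines in which that of CDCP1 was higher. No gene of the list was up-regulated in both lines.

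Of 25 focal adhesion genes 24 were measured, with medians of -0.18 and 0.065. TGFB1I1, which encodes the paxillin relative Hic-5, was up-regulated in both lines, with intensities of 976, 3045 and 2338 and ratios of 3.56 and 2.33. TNS2, a tensin, was up-regulated too, with 173, 371 and 504 and ratios of 2.45 and 2.84. TNS4, the short epithelial tensin, was down-regulated, with 1397, 63.2 and 85.2 and ratios of 0.0516 and 0.0594. GIT1, a paxillin-binding scaffold, was counted as down-regulated on its brighter probe (0.496 and 0.399), whereas a second probe gave 0.591 and 0.652. TNS1 differed most between the lines, with 3.93 in OR1 and 0.930 in OR2 on its brightest probe, and a second probe gave 1.39 and 0.553.

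All 16 genes for actin and invadopodium substrates were measured, with medians of -0.16 and -0.17. SH3PXD2A, which encodes the Src substrate TKS5 of invadopodia, was down-regulated in both lines, with intensities of 265, 70.3 and 50.7 and ratios of 0.303 and 0.186. None of the 16 was up-regulated in both. All 8 caveola genes were measured, with medians of -0.044 and 0.017. CAVIN2, listed in the files as SDPR, was up-regulated, with 13.1, 56.5 and 153 and ratios of at least 4.93 and 11.4. CAV2, the partner of caveolin-1, had the largest difference between the lines, with intensities of 7080, 1414 and 4256 and ratios of 0.228 and 0.585, so that CAV1 and CAV2 were both lower in OR1 than in OR2.

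**Figure D5:**
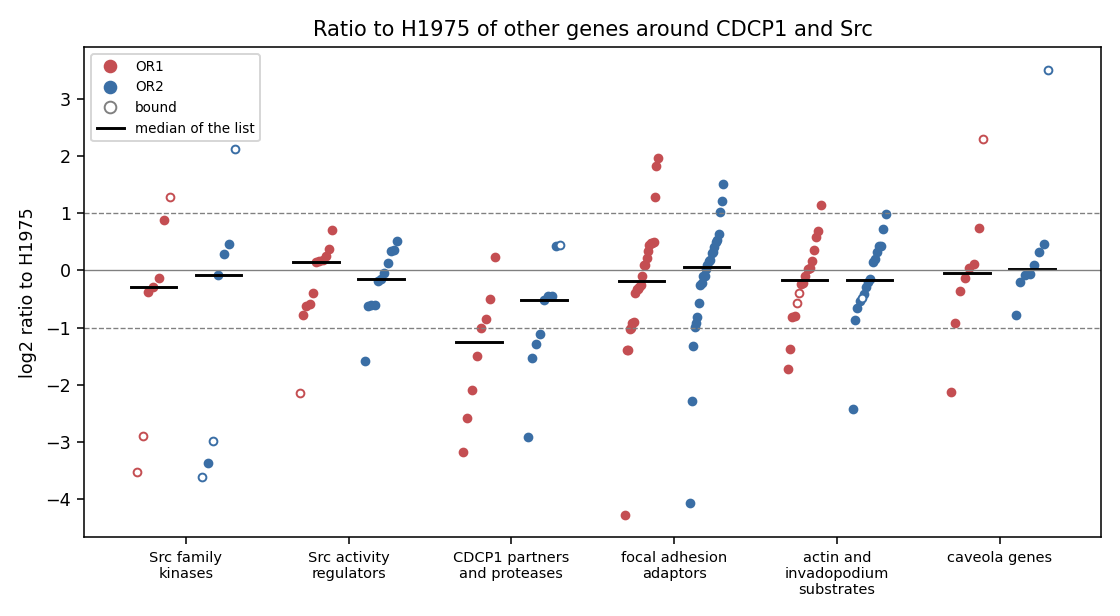
Log2 ratio to H1975 of the 75 measured genes of the 6 lists in OR1 (red) and OR2 (blue), with open symbols for bounds, the median of each list as a bar and dashed lines at ratios of 2 and 0.5. The CDCP1 partners and proteases have the lowest medians (-1.25 and -0.52), and the medians of the other 5 lists lie between -0.30 and 0.15.

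Markers of cell types were measured on the same arrays. Of 5 epithelial genes, KRT8 (ratios of 1.12 and 0.964) and KRT18 (0.884 and 0.806) did not pass 0.5, while KRT19, EPCAM and CDH1 were down-regulated in both lines, CDH1 at 0.0205 and 0.0800. The summed intensity of the 5 was 259060, 129031 and 149232 in the order H1975, OR1 and OR2. Such a sum is led by its brightest probe, here KRT19 (149897, 60841 and 75838). Of 6 fibroblast genes COL3A1, DCN and PDGFRA were not well above background on any array, and the summed intensity was 673, 685 and 104. The similar sums of H1975 and OR1 hide opposite moves. In OR1 COL1A2 was at 0.162, COL1A1 at 1.45 and LUM at least 5.43. In OR2 COL1A1 was at 0.183 and COL1A2 at most 0.0615, with LUM not well above background. Of 4 leukocyte genes CD3E was at background on all 3 arrays, and the sum, 579, 1215 and 2179, followed CD14, at ratios of 4.25 and 6.56. The sum of 3 endothelial genes was 89.0, 97.9 and 104, and it also hides opposite moves of dim probes. In OR1 the brightest probes of PECAM1, CDH5 and VWF were at 2.10, 0.664 and 0.776, so that PECAM1 was past 2. A second PECAM1 probe was at least 2.75 in OR1. In OR2 the brightest probes of the same genes were at 1.19, 1.21 and 0.927. Of the epithelial markers, 3 of 5 were thus down-regulated in the lines in which AFAP1L2, TNS4 and ST14 were down-regulated and CDCP1 was up-regulated, and their part in these ratios was not tested. A smaller share of cells and less RNA per cell cannot be told apart in bulk RNA.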

How the data were processed

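The authors hybridized RNA of each line to 1 Agilent single-colour human array, and their scanner files give the intensity of each spot, corrected for background and not scaled between arrays, with an error estimate. The processing notes name Feature Extraction 9.5.1.1 and the file header 10.7.1.1. A second deposited table holds normalized intensities by a method not given in the sources used here. Its ratios for the 10 genes were nearly those of quantile normalization (CDCP1 in OR1 at 11.15 against 11.14). These settings therefore do not count as separate alternatives.

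Control and outlier spots were left out, repeated spots were averaged as log2 intensity, and the 75th percentile of each array was subtracted. Where a gene had several probes, gene counts used the one brightest on average after scaling. With 1 array per line no test was made, and the number of arrays limits the precision. No spot was saturated, and 45.6% to 45.9% of probes were well above background.

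The members and lists were chosen with earlier results of these data known. Named were every member with all probes, genes of the 6 lists past 2 or 0.5 the same way in both lines, the gene of each list that differed most between OR1 and OR2, the 5 genes most like CDCP1 (1 of them is not reported here), and genes on which a result turns. Probe positions are hg19, as in the files. The RefSeq tables (GRCh38.p14) gave names and promoters, and all 16 member probes with a RefSeq accession matched by symbol. Exon and UTR annotation of hg19 was not used here. Sequences of chromosome 8 genes are not given.

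Alternatives were quantile, median, spike-in and no scaling, normexp with an offset of 50, the authors' normalized intensities, other filters on background, outlier and saturated spots, other choices of probe, and ratios of 4 and 1.5. The counting was tested on simulated data. Python 3.11.15, numpy 2.4.6, pandas 2.3.3, R 4.3.3 and limma 3.58.1 were used.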

Additional observations from a re-analysis of the deposited data

Results flagged for a closer look

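Of the list genes, 15 had OR1 and OR2 on opposite sides of H1975 on their brightest probe, and in 3 of them both lines differed from H1975 by more than 1 technical SD. In these 3, OR1 lay below H1975 and OR2 above it, with no test of OR1 against OR2, so the difference was not tested. TNS3, a tensin of focal adhesions, was at a ratio of 0.818 in OR1 against 1.41 in OR2. VCL, which encodes vinculin, had 0.794 and 1.26. CAV3, the muscle caveolin, had 0.531 and 1.25. Each ratio rests on 1 array per line and shares the H1975 array with the other.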

How the results depend on the processing

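CDCP1, AFAP1L2 and PAG1 in OR1, the ratios past 2 or 0.5, kept their direction under every alternative run. BCAR1 in OR2, which passed neither ratio (0.948), turned to 1.11 with quantile normalization and with the authors' normalized intensities, which are nearly the same setting. The ratio of CDCP1 in OR1 (11.3) was 7.47 with spike-in scaling, 5.78 with normexp and at least 8.81 as the median over probes. In OR2 (9.54) it was 5.09 with normexp and at least 7.03 as the median over probes. The number of list genes up-regulated in both lines, 4, was 2 with spike-in scaling, 2 with normexp, 2 when all 3 arrays had to be well above background and 1 at a ratio of 4, and the number down-regulated, 10, was 4 at a ratio of 0.25 and 18 at a ratio of 1.5 and its inverse. At that looser ratio 3 members passed upward and 2 downward in both lines, against 1 and 1, beside 11.5% and 13.2% of all genes measured. The stricter and looser counts follow from the ratio set. FGR and CAVIN2 leave the count when all 3 arrays must be well above background, because H1975 was not. Normexp adds an offset of 50 to each intensity, which draws the ratios of dim spots towards 1. For spike-in scaling and normexp the cause of the changed counts was not tested. Of 216 values of the other 9 members, 191 moved by less than 1 technical SD and 25 by more, 9 of these with spike-in scaling. These counts hold quantile normalization and the authors' nearly identical intensities side by side. The same 4 values, BCAR1, CTTN, PXN and CAV1 in OR2, moved under each. The 191 include values that could not move. No spot was saturated, and the brightest probe of each member was well above background on all 3 arrays and also the brightest in H1975. The background filters, leaving out saturated spots and choosing the probe in H1975 thus returned the same values. Among all genes, up-regulated genes made up 48.9% of those past either ratio in OR1, 12.3% with spike-in scaling, 34.0% with no scaling, 40.5% with median scaling and 41.1% with normexp. The OR1 median over all genes shifted by -0.19 in log2 without scaling and by -0.11 with median scaling. Signal over background limits the second CDCP1 probe in H1975 and AFAP1L2 in OR1 and OR2. A slide block was not run because all 3 arrays share 1 slide, and no array could be left out with 1 per line. No paired analysis was possible because the lines share a single replicate number.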
